A study of Mus musculus with 10 samples.

Results

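The genes described here encode the splicing machinery and its regulators: 63 protein-coding genes of the 39179 gene identifiers listed in each sample, chosen by the start of their mouse symbol and not by any measured value. Earlier results of these data were known when the rule was set. The 63 genes fall into 4 classes. The core spliceosome class held 20 genes, namely 11 Snrp genes for the proteins of the small nuclear ribonucleoprotein particles and 9 Sf3a and Sf3b genes for the branch point complex that travels with the U2 particle. The SR protein class held 11 Srsf genes, the hnRNP class held 20 Hnrnp genes, and the class called muscle splicing regulators here held 12 genes of the Rbfox, Mbnl and Celf families. Enough reads to test were present for 56 of the 63 genes, which were all 20 core genes, 10 SR genes, all 20 hnRNP genes and 6 regulators.

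The spliceosome removes introns from pre-mRNA. Its small nuclear ribonucleoproteins recognise the splice sites and the branch point, SR proteins mostly favor and hnRNP proteins often repress the use of nearby exons, and all of these are made in nearly every cell. Rbfox, Mbnl and Celf proteins are sequence-specific RNA-binding proteins that set tissue-specific exon choice, and in skeletal muscle they direct the switch from fetal to adult isoforms of contractile, channel and membrane proteins. Read counts per gene measure how much RNA each factor had. They say nothing of which exons were used.

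Muscle RNA came from 10 mice, 1 library each, and from the tibialis anterior, a fast-twitch dorsiflexor of the foot. The LLC group (n = 6) received Lewis lung carcinoma cells, a cultured mouse lung tumor line, under the skin of both flanks and carried tumors, and the Control group (n = 4) received buffer (PBS) in the same places and carried none. The sample labels give C57BL/6J mice injected at 10 weeks of age with muscle taken on day 23, whereas the series text gives C57BL/10 males injected at 8 weeks and studied on day 22, so strain, age and day are known only within that disagreement. The labels put Control at day 0 of tumor development. No difference in strain or age between the groups is given, and neither carries an engineered allele.

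Total counts ran from 16693209 in LLC 1 to 21303084 and were lower with tumors (two-sided exact permutation test, p = 0.0381). Genes of the mitochondrial genome took 28.4 to 30.7% of counts in Control and 22.0 to 27.9% in LLC, lowest in LLC 1 and LLC 5 at 22.0 and 22.9% (two-sided exact permutation test, p = 0.00952, the smallest that 4 against 6 samples allow). The library scaling (TMM) factors applied below were 0.930 to 0.955 in Control and 0.967 to 1.17 in LLC, highest in LLC 1. Fast fibre markers marked every sample as fast muscle, with summed levels of 135605 to 144963 CPM in Control (CPM being reads of a gene scaled to a common library total) and 96579 to 150998 in LLC. All 10 tested neutrophil markers were past the threshold and higher in LLC, with sums of 1.38 to 3.01 against 37.1 to 80.5 CPM, and all 8 fibroblast markers were lower, with sums of 305 to 393 against 56.3 to 100.3 CPM. The summed levels of macrophage, endothelial, satellite cell, and neuron and Schwann cell markers were 24.9 to 38.0, 247 to 326, 28.6 to 34.6 and 38.8 to 44.7 CPM in Control and 21.5 to 38.8, 254 to 291, 25.4 to 37.9 and 21.4 to 30.1 CPM in LLC, with 1 of 7, 1 of 7, 2 of 5 and 2 of 5 tested markers past the threshold, all of them lower. Of the 10 neuron and Schwann cell markers 3 had no read in any sample, Rbfox3 among them. In such bulk samples fewer cells of a type and less RNA per cell cannot be told apart, and the part of these shifts in the results below was not tested.

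A gene was past the threshold when its change was at least 1.5-fold and its p from edgeR's quasi-likelihood test, adjusted by Benjamini-Hochberg over the 12690 genes tested, was at most 0.05. Of the 56 tested splicing genes 1 was past it, Rbfox1, which rose, where 5.63% of all genes tested were past it. With no fold limit 2 passed, Rbfox1 and Celf2, both of them muscle splicing regulators and both higher in LLC, where 6.99% of all genes passed. At an unadjusted p of 0.05 or less 12 of the 56 passed, which is 21.4%, where 27.4% of all genes did. The shares past the test, counted in either direction, were thus below those over all genes tested. DESeq2 on the same counts passed 4 with no fold limit, Celf2, Hnrnpm, Rbfox1 and Srsf7, where it passed 11.9% of all genes, and limma voom with sample quality weights passed 7, these 4 with Hnrnpu, Hnrnpul2 and Snrpb2, where it passed 18.0%.

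The fitted direction was nonetheless mostly the same. The log2 fold change, LLC against Control, was positive for 48 of the 56 and negative for 8, with a median of 0.18 and a range of -0.40 to 0.64. Over all genes tested 50.3% were positive and the median was 0.00. All 12 of the genes with an unadjusted p of 0.05 or less had positive values. Over all 12690 genes tested, 3472 had that p and 1617 of these were positive. In the positive direction alone the counts are thus 12 of 56 against 1617 of 12690. In 9 of the 56 every LLC sample was above every Control sample (6.40% of all genes did this), and in 0 was every LLC sample below every Control sample (9.57% of all genes). Those 9 were Celf2, Rbfox1, Hnrnpm, Srsf7, Hnrnpab, Hnrnpu, Hnrnpul2, Hnrnpa3 and Sf3b2, named here after their values were seen. Neither the count of positive values nor the median was tested, because the genes of a class are not independent of each other.

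**Figure D1:**
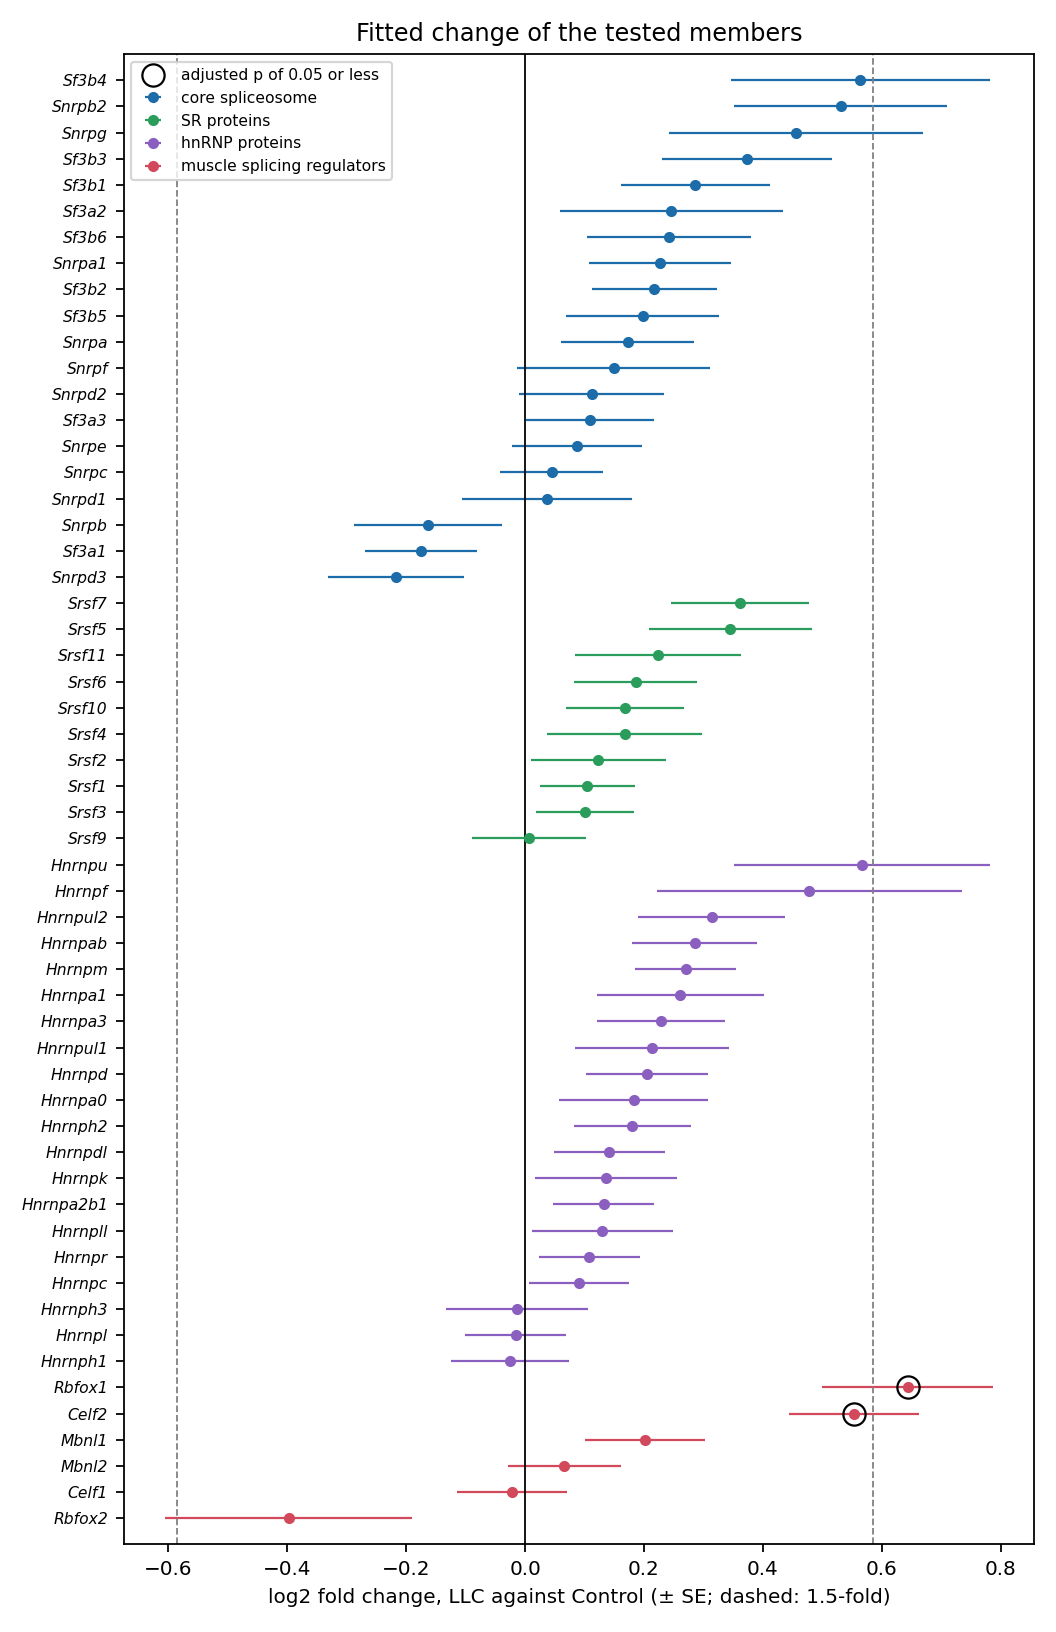
The log2 fold change of LLC against Control is on the x axis for each of the 56 tested genes, with the standard error as a line, colored by class and sorted within it, and dashed lines at 1.5-fold. Most points lie to the right of 0, only Rbfox1 lies past the dashed line with an adjusted p of 0.05 or less, and the circled points are Rbfox1 and Celf2.

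LLC 1 weighed on this pattern. It was the highest of the 10 samples for 29 of the 56 genes, which is 51.8%, where it was the highest for 29.6% of all genes tested. It also had the fewest counts, the lowest mitochondrial share and the highest scaling factor, and the part of these in its values was not tested. Without LLC 1 the median of the 56 was 0.13 with 52 of the 56 positive. Over the 12612 genes tested in both fits the median was then 0.01, with 6547 positive. The adjusted p with no fold limit was then passed by 5 of the 56, where 14.2% of 12624 genes passed it. These 5 were Celf2, Hnrnpm, Hnrnpu, Rbfox1 and Snrpb2. Samples of the LLC group differed from each other more than Control samples did. The median SD within a group on the log2 CPM scale was 0.08 in Control and 0.20 in LLC for the 56 genes. Over all genes tested it was 0.13 and 0.28. The larger SD was in LLC for 50 of the 56 and for 10803 of all 12690 genes tested.

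**Figure D2:**
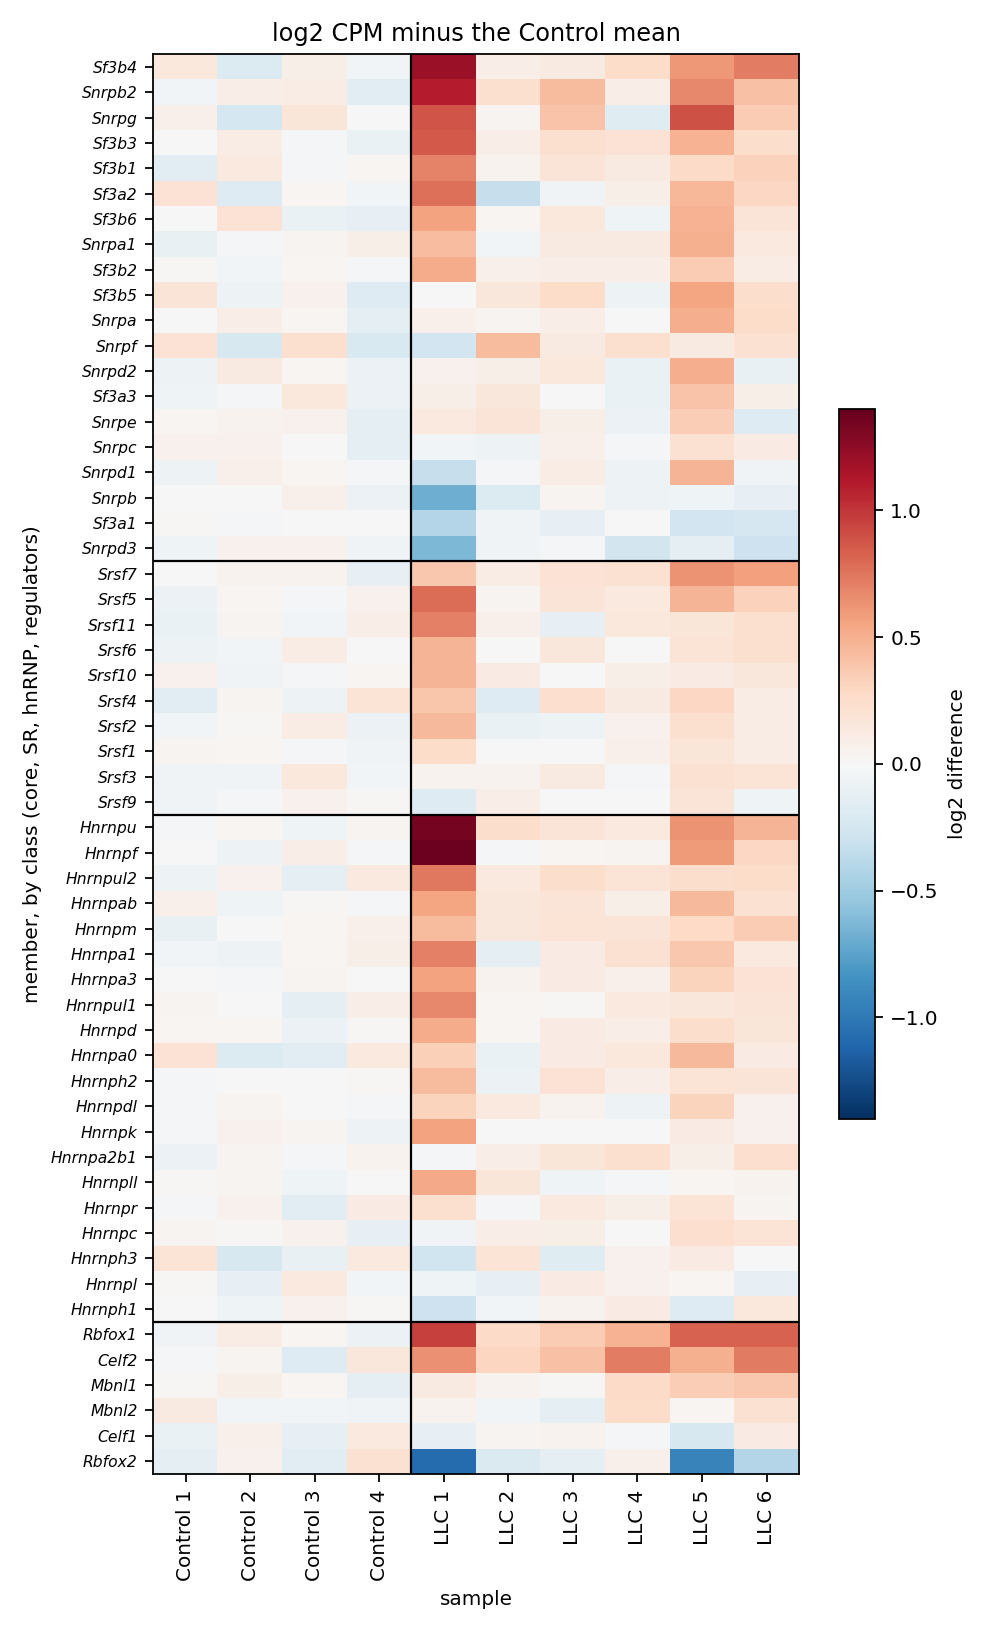
Each row is a tested splicing gene and each column a sample, and the color gives log2 CPM minus the mean of the 4 Control samples, with black lines between the groups and between the classes. The column of LLC 1 holds the strongest colors in both directions, LLC 5 and LLC 6 follow, and LLC 2, LLC 3 and LLC 4 are close to Control for most core, SR and hnRNP genes.

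Among the muscle splicing regulators, Rbfox1 and Celf2 were higher in LLC, Mbnl1, Mbnl2 and Celf1 did not pass the test, and the fitted change of Rbfox2 was negative and did not pass it. Rbfox proteins bind UGCAUG elements near alternative exons, Mbnl proteins favor adult splice forms and are the factors titrated by expanded CUG repeats in myotonic dystrophy, and Celf proteins act on many of the same exons in the opposite direction. The 2 regulators that passed the adjusted p are very long genes, and RefSeq promoter windows at their starts are given here. Of the 7 windows 6 have few CG dinucleotides, in contrast to most core and SR windows described later. Few CG is common, as 62.2% of all RefSeq windows have fewer than 10. The Celf2 windows chr2:7396001-7396250 and chr2:7396199-7396448 overlap each other. Each window is the 250 bases before a RefSeq start in GRCm38.p6, the same build as mm10. It is read on the strand of the gene with each CG dinucleotide in capitals.
Rbfox1, chr16:5884543-5884792, plus strand, 2 CG: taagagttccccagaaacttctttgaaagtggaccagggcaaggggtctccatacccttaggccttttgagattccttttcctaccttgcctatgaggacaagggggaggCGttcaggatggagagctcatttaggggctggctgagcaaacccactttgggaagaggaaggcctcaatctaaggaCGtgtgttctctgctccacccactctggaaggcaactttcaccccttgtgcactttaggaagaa
Rbfox1, chr16:7069585-7069834, plus strand, 6 CG: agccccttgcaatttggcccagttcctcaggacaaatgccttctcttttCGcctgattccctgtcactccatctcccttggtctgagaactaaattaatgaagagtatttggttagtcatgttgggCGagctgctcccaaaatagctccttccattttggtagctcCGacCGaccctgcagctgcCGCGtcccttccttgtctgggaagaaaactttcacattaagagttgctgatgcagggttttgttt
Celf2, chr2:6872036-6872285, minus strand, 43 CG: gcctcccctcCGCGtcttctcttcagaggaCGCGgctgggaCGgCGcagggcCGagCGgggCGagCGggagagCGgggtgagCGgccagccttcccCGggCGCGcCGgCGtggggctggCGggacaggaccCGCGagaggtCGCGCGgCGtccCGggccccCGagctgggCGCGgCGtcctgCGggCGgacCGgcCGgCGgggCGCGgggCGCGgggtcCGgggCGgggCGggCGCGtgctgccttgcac
Celf2, chr2:7396199-7396448, minus strand, 3 CG: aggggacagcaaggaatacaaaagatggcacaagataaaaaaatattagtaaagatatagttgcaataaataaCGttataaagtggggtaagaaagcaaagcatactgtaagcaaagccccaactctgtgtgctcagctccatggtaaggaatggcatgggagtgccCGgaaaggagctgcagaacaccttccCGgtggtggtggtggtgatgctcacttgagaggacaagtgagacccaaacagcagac
RefSeq gave both windows of Rbfox1 few CG dinucleotides, and of the 5 windows of Celf2 it gave 4 with 3 to 7 and 1 with 43. The counts used here sum over all transcripts of a gene, so which start was in use is not known from them.

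Rbfox1 (ENSMUSG00000008658, chromosome 16, 5885355 to 7411526, plus strand) had the highest level per length of the class, at 67.4 ± 4.76 TPM (SD, n = 4) in Control, TPM being the read count per base of exon scaled to a common total. Its level was 164, 182, 173 and 161 CPM in Control 1 to 4 and 331, 205, 218, 238, 301 and 301 CPM in LLC 1 to 6. Every LLC sample was above every Control sample, and within LLC samples 1, 5 and 6 stood above samples 2, 3 and 4. The means were 170.0 ± 9.72 CPM (SD, n = 4) and 266 ± 51.9 CPM (SD, n = 6), and the log2 fold change was 0.64 ± 0.14 (SE; edgeR adjusted p = 0.0212). The call depended on single samples. The adjusted p was 0.0755, 0.0515, 0.0660 and 0.0766 without Control 1, 2, 3 and 4 and 0.0524 without LLC 6. Without LLC 1 the adjusted p was 0.00927 but the log2 fold change, 0.58, fell just short of 1.5-fold. Over 18 alternatives the log2 fold change stayed between 0.49 and 0.72 and the adjusted p ran from 0.000766 (DESeq2) to 0.250, and limma voom gave 0.49 with an adjusted p of 0.00417, which is past the adjusted p and under 1.5-fold.

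Rbfox2 (ENSMUSG00000033565, chromosome 15, 77078990 to 77307004, minus strand), the paralog found in most tissues, stood at 16.2 ± 2.32 TPM (SD, n = 4) in Control. It had 69.0, 78.4, 67.8 and 87.5 CPM in the Control samples and 35.6, 65.4, 68.8, 79.4, 39.2 and 56.5 CPM in LLC 1 to 6. The groups overlapped: LLC 3 and LLC 4 were within the Control range, and LLC 1, 5 and 6 were the lowest. Its fitted log2 fold change was -0.40 ± 0.21 (SE; edgeR adjusted p = 0.230) and -0.29 without LLC 1. The 3 LLC samples highest in Rbfox1 were thus the 3 lowest in Rbfox2, and they were also the 3 with the lowest mitochondrial share, at 22.0, 22.9 and 25.8%. The ratio of Rbfox1 to Rbfox2 CPM was 1.84 to 2.56 in Control and 9.30, 3.14, 3.17, 3.00, 7.67 and 5.33 in LLC 1 to 6, with no overlap. This ratio was formed after the values were seen and was not tested. The 2 genes differ in length, so the ratio can be compared between samples and not read as a ratio of transcripts. Rbfox3, known as the neuronal nuclear antigen NeuN, had no read in any of the 10 samples, which allows a level of up to 0.148 to 0.174 CPM, the value of 3 counts.

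**Figure D3:**
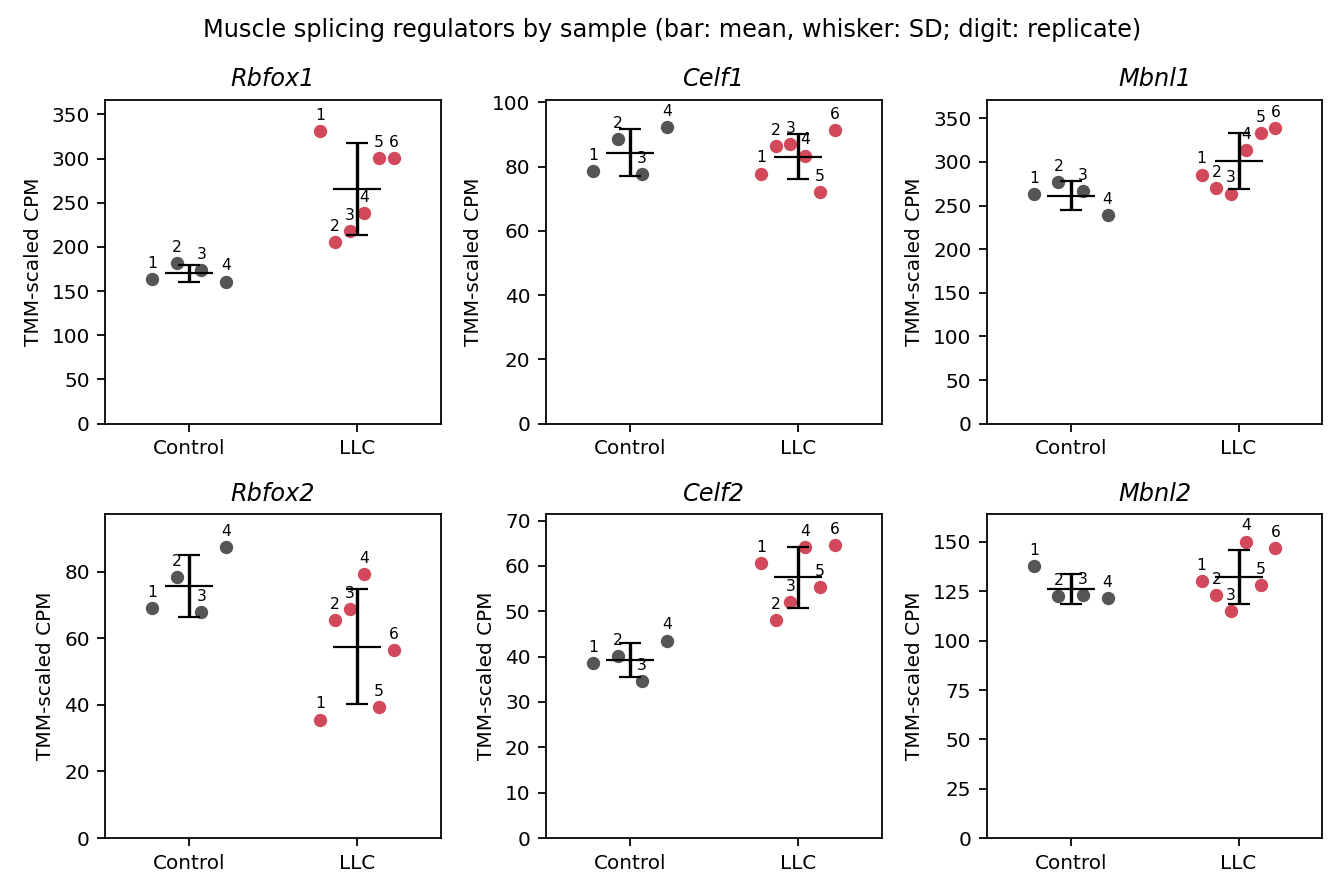
Each panel gives the TMM-scaled CPM of 1 regulator in the 4 Control and 6 LLC samples, with the replicate number beside each point, the group mean as a bar and the SD as whiskers, on axes that start at 0. Rbfox1 and Celf2 show no overlap between the groups, and LLC 1, 5 and 6 are the highest in Rbfox1 and the lowest in Rbfox2.

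Celf2 (ENSMUSG00000002107, chromosome 2, 6539694 to 7509563, minus strand), which binds GU-rich elements, was the lowest of the tested regulators per length, at 2.64 ± 0.294 TPM (SD, n = 4) in Control. It had 38.6, 40.0, 34.6 and 43.5 CPM in Control 1 to 4 and 60.7, 48.1, 52.1, 64.1, 55.3 and 64.6 CPM in LLC 1 to 6. The groups did not overlap, and LLC 1 was not the highest sample. Celf2 had a log2 fold change of 0.55 ± 0.11 (SE; edgeR adjusted p = 0.0114), under the 1.5-fold limit. Without Control 3 the adjusted p was 0.0519, and without Control 4 or LLC 2 the log2 fold change was 0.61 in both cases and Celf2 was past the threshold. Over all 18 alternatives the adjusted p ran from 8.6e-05 (DESeq2) to 0.123. An antisense gene, Gm26565, overlaps Celf2. The study's methods give the default settings of HTSeq, which count by strand, and whether reads of the antisense gene entered the count was not tested.

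Celf1 (ENSMUSG00000005506), the family member raised in myotonic dystrophy, did not pass the test. Its level per length in Control was 17.4 ± 1.90 TPM (SD, n = 4), above that of Celf2. It had 78.6, 88.6, 77.8 and 92.3 CPM in Control and 77.8, 86.5, 87.1, 83.4, 72.1 and 91.4 CPM in LLC, with overlapping groups and a log2 fold change of -0.02 ± 0.09 (SE; edgeR adjusted p = 0.893). The sign of that value turned in 5 alternatives, always at a size near 0. Of the brain-enriched members Celf3, Celf4, Celf5 and Celf6 no sample held more than 7, 5, 2 and 3 reads, and none of them was tested.

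Mbnl1 (ENSMUSG00000027763), the main muscleblind gene of adult muscle, had 264, 277, 266 and 239 CPM in Control and 286, 269.9, 264, 314, 333 and 339 CPM in LLC 1 to 6. LLC 1, 4, 5 and 6 were above every Control sample and LLC 2 and 3 were inside the Control range. For Mbnl1 the log2 fold change was 0.20 ± 0.10 (SE; edgeR adjusted p = 0.211), and it stood at 24.4 ± 1.56 TPM (SD, n = 4) in Control. Mbnl2 (ENSMUSG00000022139), which shares most of its targets, stood at 18.3 ± 0.675 TPM (SD, n = 4) and had 138, 123, 123 and 121 CPM in Control and 130.0, 123, 115, 150.2, 128 and 147 CPM in LLC. Its groups overlapped, with a log2 fold change of 0.07 ± 0.10 (SE; edgeR adjusted p = 0.668), and an antisense gene, Gm26679, overlaps it. Mbnl3, a gene of immature muscle and placenta, had 2 to 4 reads in Control and at most 5 in LLC and was not tested. In Control the order per length was therefore Rbfox1, Mbnl1, Mbnl2, Celf1, Rbfox2 and Celf2. That length takes all annotated exons of a gene together, 4400 bases for Rbfox1, 18717 for Mbnl1 and 25884 for Celf2. By CPM, with no division by length, Mbnl1 was above Rbfox1 in every Control sample. The order under other lengths was not tested. The spreads of Mbnl2, Celf1 and Rbfox2 overlapped, at 18.3 ± 0.675, 17.4 ± 1.90 and 16.2 ± 2.32 TPM (SD, n = 4), so these 3 neighbors were not apart beyond their SD.

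Over the 20 genes of the core spliceosome the log2 fold change had a median of 0.19, with 17 positive, a range of -0.22 to 0.56, and 0 past the adjusted p. By edgeR's unadjusted p 4 of the 20, which is 20.0%, were at 0.05 or less, where 27.4% of all genes tested were. The SF3B subunits, which hold the branch point adenosine with the U2 particle, were all 6 positive, with a median of 0.26, and 3 reached an unadjusted p of 0.05. The 3 SF3A subunits had a median of 0.11 and the 11 Snrp genes a median of 0.11, with 1 unadjusted p of 0.05 or less. For 5 of the 6 SF3B genes LLC 1 was the highest sample, where it was for 29.6% of all genes tested. Without LLC 1 the median of the 6 was 0.22.

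Snrpb2, which encodes the U2 protein known as U2B″, had 11.3, 12.3, 12.4 and 10.4 CPM in Control and 25.0, 13.5, 15.8, 12.4, 18.4 and 15.4 CPM in LLC 1 to 6. LLC 4 was within the Control range and LLC 1 was the highest. Snrpb2 had a log2 fold change of 0.53 ± 0.18 (SE; edgeR adjusted p = 0.0952) and 0.39 without LLC 1. Sf3b4 had 4.69 to 5.93 CPM in Control and 12.5, 5.70, 5.85, 6.40, 8.23 and 8.89 CPM in LLC 1 to 6, with a log2 fold change of 0.56 ± 0.22 (SE; edgeR adjusted p = 0.130), and an antisense gene, Gm17690, overlaps it. Sf3b3 had 18.4, 19.8, 18.1 and 17.3 CPM in Control and 33.3, 19.5, 21.4, 21.2, 25.7 and 21.8 CPM in LLC, with a log2 fold change of 0.37 ± 0.14 (SE; edgeR adjusted p = 0.128). It overlaps Cog4 on the other strand and 2 small RNA genes on its own. In all 3 genes LLC 1 was the highest sample, and none of the 3 separated the groups in every sample.

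The 2 most abundant core genes per length, Snrpb and Snrpd3, had negative fitted changes that did not pass the test. The genes next in level had positive ones that did not pass it either. They were Sf3b2, Snrpe and Snrpd2, at 18.7, 17.7 and 16.7 TPM in Control, with log2 fold changes of 0.22, 0.09 and 0.11. Snrpb and Snrpd3 encode Sm proteins of the ring found in most spliceosomal particles, and stood at 80.7 ± 3.38 and 20.0 ± 1.20 TPM (SD, n = 4) in Control. Snrpb had 91.3, 91.8, 96.1 and 86.5 CPM in Control and 56.9, 80.2, 93.9, 86.9, 87.5 and 84.6 CPM in LLC, with a log2 fold change of -0.16 ± 0.12 (SE; edgeR adjusted p = 0.397). LLC 1 was the lowest sample by far, and without it the log2 fold change was -0.07. Snrpd3 had 37.8, 41.1, 41.0 and 38.0 CPM in Control and 25.5, 38.1, 38.8, 32.9, 36.1 and 32.3 CPM in LLC, with a log2 fold change of -0.22 ± 0.11 (SE; edgeR adjusted p = 0.233), and Gucd1 overlaps it on the other strand. LLC 1 was thus the highest sample for Snrpb2, Sf3b4 and Sf3b3 and the lowest for Snrpb and Snrpd3. This contrast did not hold across the Sm genes or the U2 genes. As log2 CPM minus the Control mean, LLC 1 had 0.88 for Snrpg, 0.13 for Snrpe and 0.06 for Snrpd2. It had -0.32 for Snrpd1, -0.27 for Snrpf and -0.41 for Sf3a1 of the U2 particle. The third core gene with a negative value was Sf3a1 (log2 fold change -0.17, edgeR adjusted p = 0.242), named after its value was seen.

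The SR proteins had a median log2 fold change of 0.17, all 10 tested genes positive from 0.01 to 0.36, 0 past the adjusted p and 2 at an unadjusted p of up to 0.05. Those 2 are 20.0% of the class, where 27.4% of all genes tested were at that p. SR proteins bind exonic enhancers through an RNA recognition motif and recruit the early splicing factors through their arginine and serine-rich tails. Srsf7 had 22.5, 23.2, 23.2 and 20.7 CPM in Control and 29.0, 24.0, 25.8, 25.8, 34.6 and 33.3 CPM in LLC 1 to 6. Every LLC sample was above every Control sample, LLC 5 and LLC 6 more so than LLC 1. Srsf7 had a log2 fold change of 0.36 ± 0.12 (SE; edgeR adjusted p = 0.0849), while DESeq2 and limma voom gave adjusted p values of 0.0398 and 0.0462. Srsf5, the most abundant SR gene per length at 45.8 ± 3.17 TPM (SD, n = 4) in Control, had 98.8, 107, 104 and 109.5 CPM in Control and 179.8, 108, 119, 115, 146 and 131 CPM in LLC. Its groups overlapped through LLC 2 alone, and the log2 fold change was 0.35 ± 0.14 (SE; edgeR adjusted p = 0.137) and 0.25 without LLC 1. Srsf6 ran from 55.5 to 62.9 CPM in Control and from 58.4 to 81.0 CPM in LLC, with a log2 fold change of 0.19 ± 0.10 (SE; edgeR adjusted p = 0.253). Srsf2, at 26.1 ± 1.50 TPM (SD, n = 4) the next most abundant, ran from 41.8 to 47.5 CPM in Control and from 41.3 to 60.8 CPM in LLC, with a log2 fold change of 0.12 ± 0.11 (SE; edgeR adjusted p = 0.488), and its locus overlaps Mettl23 and Mfsd11 on the other strand. LLC 1 was the highest sample for 7 of the 10 SR genes, Srsf5, Srsf6 and Srsf2 included, and for 29.6% of all genes tested. Srsf12 had at most 1 read in any sample and was not tested.

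The hnRNP proteins coat nascent transcripts and act in splicing, export and stability. Their median log2 fold change was 0.18, 17 of the 20 were positive, the range was -0.03 to 0.57, 0 passed the adjusted p and 4 reached an unadjusted p of 0.05. Those 4 are 20.0% of the class, where 27.4% of all genes tested were at that p. LLC 1 was the highest sample for 14 of the 20, where it was for 29.6% of all genes tested. Without LLC 1 the median was 0.13 and all 20 were positive, the 3 negative values having been -0.01, -0.02 and -0.03. The median over all genes tested in both fits was then 0.01. Hnrnpu, a nuclear scaffold and chromatin-associated RNA-binding protein, had 93.6, 96.8, 91.0 and 97.5 CPM in Control and 239, 112, 107, 104, 147 and 132 CPM in LLC 1 to 6. All 6 LLC samples were above Control, and LLC 1 was far above the other 5. Its log2 fold change was 0.57 ± 0.22 (SE; edgeR adjusted p = 0.124), and without LLC 1 it was 0.36 with an adjusted p of 0.0371. Cox20 overlaps it on the other strand. Hnrnpm had 69.8, 75.0, 76.6 and 78.6 CPM in Control and 102, 83.6, 85.3, 85.1, 91.1 and 96.0 CPM in LLC. Every LLC sample was above Control with a narrow spread, and the log2 fold change was 0.27 ± 0.08 (SE; edgeR adjusted p = 0.0789), with adjusted p values of 0.0151 by DESeq2, 0.0207 by limma voom and 0.0350 without LLC 1. A same-strand neighbor, March2, overlaps its locus.

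Hnrnpab had 44.7 to 48.9 CPM in Control and 68.8, 52.2, 53.1, 49.5, 63.8 and 54.3 CPM in LLC 1 to 6, with no overlap and a log2 fold change of 0.29 ± 0.10 (SE; edgeR adjusted p = 0.116), and Phykpl overlaps it on the other strand. The most abundant hnRNP genes per length were Hnrnpa2b1 and Hnrnpa1, at 97.8 ± 6.49 and 37.6 ± 2.30 TPM (SD, n = 4) in Control. Both encode proteins that bind exonic silencers. Hnrnpa2b1 had 349, 379.6, 364 and 382 CPM in Control and 364, 392, 414, 429.9, 389.8 and 435 CPM in LLC, with a log2 fold change of 0.13 ± 0.08 (SE; edgeR adjusted p = 0.317). Here LLC 1 was the lowest LLC sample and lay inside the Control range. Hnrnpa1 had 66.0, 64.6, 69.0 and 72.0 CPM in Control and 111, 62.1, 73.6, 78.7, 88.2 and 74.7 CPM in LLC, with a log2 fold change of 0.26 ± 0.14 (SE; edgeR adjusted p = 0.241), and it is known to have processed copies in the genome, whose share of its reads was not measured. Hnrnpf, named after its values were seen, depended most on LLC 1: it had 72.6 CPM there, 27.3 to 42.1 CPM in the other 5 LLC samples and 26.6 to 29.8 CPM in Control, and its log2 fold change was 0.48 (edgeR adjusted p = 0.240) with LLC 1 and 0.21 without it.

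The core spliceosome and the muscle splicing regulators were then set side by side. The median log2 fold change was 0.19 over the 20 core genes and 0.13 over the 6 regulators, and 0.17 and 0.15 without LLC 1, and limma voom gave 0.11 and 0.10, while single genes ran from -0.22 to 0.56 in the core class and from -0.40 to 0.64 among the regulators. Of the regulators 2 of 6 passed the adjusted p and of the core genes 0 of 20, where 6.99% of all genes tested did. That difference between small counts was not tested. The mean log2 CPM of a class minus its Control mean gives 1 value per sample. For the core class it was -0.07 to 0.05 in Control and 0.25, 0.04, 0.12, 0.01, 0.37 and 0.14 in LLC 1 to 6. For the regulators it was -0.07 to 0.05 in Control and 0.10, 0.07, 0.10, 0.30, 0.09 and 0.31. The core class was above the regulators in LLC 1, 3 and 5 and the regulators above the core class in LLC 2, 4 and 6. The SR class, at 0.38, 0.02, 0.07, 0.08, 0.27 and 0.19, and the hnRNP class, at 0.43, 0.05, 0.09, 0.09, 0.24 and 0.16, were highest in LLC 1 and LLC 5, where the regulators were not. The regulator value is a mean of 6 genes that holds opposite values in those samples. Rbfox1 stood at 0.96 in LLC 1 and 0.82 in LLC 5, and Rbfox2 at -1.08 and -0.94. In LLC 6, where the regulator value was highest, Rbfox1 stood at 0.83 and Rbfox2 at -0.41. The regulator value in LLC 1, LLC 5 and LLC 6 is thus not a shift shared by its genes. LLC 1 and LLC 5 were the samples with the lowest mitochondrial share and the highest scaling factors, and the part of these in the class values was not tested. Per length the tested regulators had a median of 17.9 TPM in Control, against 16.4 for hnRNP, 10.8 for SR and 6.86 for core genes, and 4.20 for all genes tested. The order depends on the untested genes: over all 12 regulators, 6 of them at or near 0, the median was 1.35 TPM, the lowest of the 4 classes, where all 11 SR genes gave 10.5 TPM and the other 2 classes, tested in full, were as above.

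**Figure D4:**
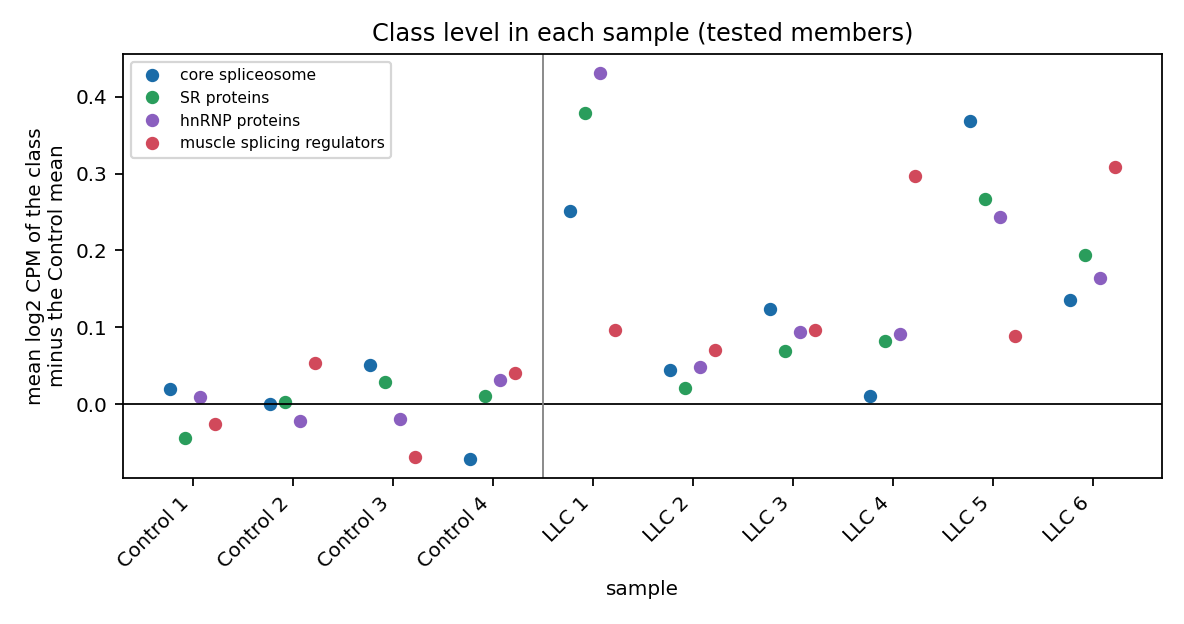
For each sample on the x axis the 4 points give the mean log2 CPM of the tested genes of each class minus the Control mean of that class. The core, SR and hnRNP points are highest in LLC 1 and LLC 5, and the regulator points are highest in LLC 4 and LLC 6, at 0.30 and 0.31. In LLC 1, LLC 5 and LLC 6 the regulator mean holds a high Rbfox1 and a low Rbfox2.

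The promoter windows gave the same 4 classes a second description that uses no count. RefSeq windows of 250 bases were found for 55 of the 63 genes, 86 windows in all, some of which overlap, and Hnrnpul2, Snrpd1, Rbfox2, Sf3b4, Celf4, Sf3b5, Snrpb and Hnrnpll had none in the table used. The median number of CG dinucleotides was 29 in the 14 SR windows, 23 in the 27 hnRNP windows, 17 in the 18 core windows and 9 in the 27 regulator windows, where all 32851 RefSeq windows had a median of 6. Fewer than 10 CG were present in 17 of the 86 windows and in 62.2% of all windows. CG-rich starts are typical of genes expressed in most cell types. A core and an SR window are shown for comparison with those of Rbfox1 and Celf2 above, again with each CG in capitals.
Snrpb2, chr2:143062819-143063068, plus strand, 19 CG: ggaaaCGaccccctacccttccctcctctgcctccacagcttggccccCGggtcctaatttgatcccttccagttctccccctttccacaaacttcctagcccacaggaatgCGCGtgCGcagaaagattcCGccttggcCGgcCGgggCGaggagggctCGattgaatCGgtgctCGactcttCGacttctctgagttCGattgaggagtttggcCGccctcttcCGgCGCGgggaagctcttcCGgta
Srsf7, chr17:80207306-80207555, minus strand, 23 CG: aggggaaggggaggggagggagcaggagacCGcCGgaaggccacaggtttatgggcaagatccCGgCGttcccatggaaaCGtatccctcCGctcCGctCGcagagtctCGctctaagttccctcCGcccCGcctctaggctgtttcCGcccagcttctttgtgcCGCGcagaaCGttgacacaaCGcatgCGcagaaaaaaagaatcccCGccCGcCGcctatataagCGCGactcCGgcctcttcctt
Both strands were searched for 4 motifs, of which none contains another. They were the core of ETS factor sites, spelled CCGGAAG, then the CCAAT box by those letters, the GC box as the letters GGGCGG, and the TATA box as the letters TATAAA. The ETS core was present in 10 of the 18 core windows, from 9 genes, in 6 of the 14 SR windows, in 3 of the 27 hnRNP windows and in 0 of the 27 regulator windows, where 6.91% of all RefSeq windows held it. The matches in core genes are shown for 4 of them with 10 bases on each side, in the orientation of the motif and with the motif in capitals.
Snrpb2, chr2:143063031-143063057: cttccccgcgCCGGAAGagggcggcca
Sf3b3, chr8:110847016-110847042: cctcgcaagcCCGGAAGcgcccaccgg
Sf3a2, chr10:80798649-80798675: gcctttgctcCCGGAAGggatcgcttc
Snrpg, chr6:86371385-86371411: ggcgacgcaaCCGGAAGcgtggctctg
CCAAT was present in 17 of the 27 hnRNP windows, which is 63.0%, and in 33.8% of all windows. GGGCGG was present in 13 of the 14 SR windows and in 32.7% of all windows, and TATAAA in 10.5% of the 86 windows and in 12.4% of all. A match is a run of letters and not a measured binding site, and windows of these classes have more G and C, with a median of 60.6% over the 86 against 52.4% over all windows.

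**Figure D5:**
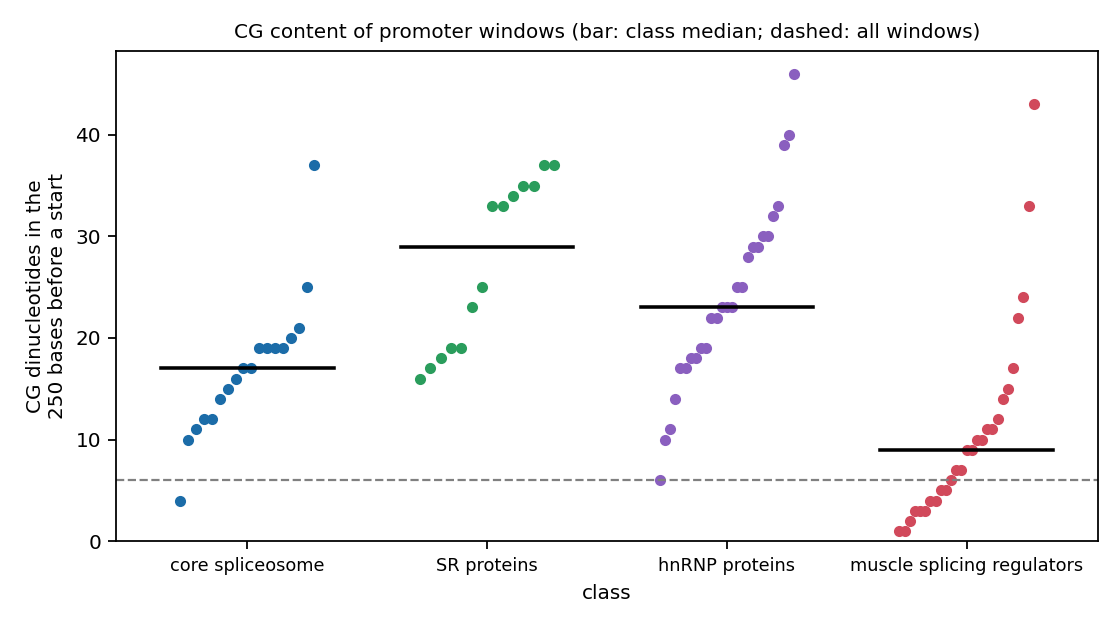
Each point is the number of CG dinucleotides in the 250 bases before 1 RefSeq start, by class, sorted within the class, with a bar at the class median and a dashed line at the median of all RefSeq windows. The medians are 17 for core, 29 for SR, 23 for hnRNP and 9 for regulator windows, and the dashed line is at 6.

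The other genes of the splicing pathway, 125 genes in 6 lists, were mostly positive too. These lists were made with earlier results of these data known. Of the 120 with enough reads (Rbm47, Khdrbs2, Esrp1, Esrp2 and Gemin4 had too few) 101 had a positive log2 fold change, the median was 0.23, and 0.14 without LLC 1, and 42 reached an unadjusted p of 0.05, 37 of them positive. That is 35.0%, where 27.4% of all genes tested did. The threshold was passed by 1 of the 120, Rbm38, where 5.63% of all genes tested passed it. The adjusted p alone was passed by 2 of the 120, Rbm38 and Lsm6, where 6.99% of all genes tested passed it. LLC 1 was the highest sample for 71 of the 120, which is 59.2%, where it was for 29.6% of all genes tested. By list the medians were 0.29 for the 9 factors of the 3′ splice site, 0.23 for 38 snRNP proteins named Snrnp, Prpf or Lsm and their partners, 0.24 for 8 SR protein kinases, 0.27 for 16 SR-related and exon junction proteins, 0.14 for 34 other RNA-binding regulators and 0.15 for 15 genes of import and snRNP assembly.

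Rbm38, an RNA-binding protein of the p53 response that also acts in muscle differentiation, was lower in LLC, at 105 ± 8.62 CPM (SD, n = 4) against 68.0 ± 14.0 CPM (SD, n = 6), with a log2 fold change of -0.63 ± 0.15 (SE; edgeR adjusted p = 0.0294), and 2 genes overlap it on the other strand. The adjusted p was 0.100, 0.0542, 0.0829 and 0.0832 without Control 1, 2, 3 and 4 and 0.0651 and 0.0701 without LLC 5 and LLC 6, and without LLC 1 the log2 fold change was -0.53 with an adjusted p of 0.00460. Lsm6, a subunit of the ring that holds U6 RNA, had 20.3 to 22.1 CPM in Control and 23.4 to 35.4 CPM in LLC, with a log2 fold change of 0.45 ± 0.12 (SE; edgeR adjusted p = 0.0466). It passed the adjusted p in 3 of the 10 fits that leave out a sample, those without LLC 1, LLC 2 or LLC 4, and the adjusted p in the other 7, those without Control 1 to 4 or LLC 3, 5 or 6, was 0.114, 0.122, 0.113, 0.138, 0.0706, 0.0893 and 0.0902.

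The remaining named genes of these lists did not pass the adjusted p. Among 3′ splice site factors U2af1, Rbm39 and Rbm17 had log2 fold changes of 0.40, 0.40 and 0.35 (edgeR adjusted p = 0.0822, 0.0870 and 0.211). Ddx23, a helicase of the U5 particle, and Sart1, of the tri-snRNP, had 0.37 and 0.60 (edgeR adjusted p = 0.0515 and 0.0742). These factors act with the core class at the branch point and in activation of the spliceosome. Clk4, Srpk1 and Clk2, kinases that phosphorylate SR proteins, had 0.49, 0.25 and 0.28 (edgeR adjusted p = 0.152, 0.167 and 0.198), and Acin1, Luc7l3 and Tra2a had 0.32, 0.26 and 0.25 (edgeR adjusted p = 0.117, 0.140 and 0.166). Nova1, known from neurons and low here, at 1.51 ± 0.296 CPM (SD, n = 4) in Control and 0.802 ± 0.280 CPM (SD, n = 6) in LLC, had -0.90 and Ptbp3, a paralog of the polypyrimidine tract repressor, had 0.34 (edgeR adjusted p = 0.0610 and 0.0649). Prmt5 and Strap, for Sm protein methylation and snRNP assembly, and Gemin6 of the SMN complex had 0.35, 0.27 and 0.45 (edgeR adjusted p = 0.0626, 0.110 and 0.116). Of the genes named from these lists, which were chosen by small p, only Rbm38 and Nova1 had negative values, while 19 of the 120 tested genes did.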

How the data were processed

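RNA of the tibialis anterior of 10 mice was sequenced from stranded total RNA libraries. Per the labels and the study's methods, the authors mapped reads to mm10 with TopHat2 and counted them with HTSeq at its default settings, which count by strand. The deposited values are whole-number counts per gene, not normalized and not pooled. The methods name RefSeq genes while the tables list Ensembl identifiers, so which annotation release was used is not given in the sources used here. No batch is given. Groups and replicate numbers came from the sample titles. Symbols were found for 37607 of 39179 identifiers, and coordinates and exonic lengths came from GENCODE M21 (GRCm38).

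Genes were kept by filterByExpr with a count minimum of 10, which left 12690, and the 2 groups were compared with the quasi-likelihood test of edgeR (version 4.0.16 in R 4.3.3; TMM factors, group as the only term) with Benjamini-Hochberg adjustment over all genes tested. The SE is the log2 fold change over the square root of F. CPM values are TMM-scaled, log2 CPM used a prior count of 2, and TPM used the union exon length. Alternatives were other scaling factors, mitochondrial genes left out, other count filters, DESeq2 1.42.0, limma voom 3.58.1 with quality weights, the replicate number as a block, an unadjusted p in the threshold, and each sample left out. The test was tried on simulated counts. Members and lists were chosen with earlier results of these data known. The genes named were every Rbfox, Mbnl and Celf gene, every gene past the adjusted p, and in each other class the 3 with the smallest p and the 2 highest per length in Control. In each list of other splicing genes they were those past the threshold and the 3 with the smallest p. Total counts of 16693209 to 21303084 make 3 counts worth 0.148 to 0.174 CPM, which covers counting error only. Each library is a separate mouse, and replicate pairs differed by more than counting noise (chi-square over degrees of freedom 3.90 to 8.67 in 6 Control pairs and 8.37 to 195 in 15 LLC pairs). Small RNA libraries were not analysed here.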

Additional observations from a re-analysis of the deposited data

Results flagged for a closer look

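For the 20 genes of the 4 classes that are named by the rule, each group was searched for a sample that lies far from its neighbors. The measure was Dixon's ratio of the gap to the range, taken on the log2 CPM scale, at the 95% limit. Of 40 groups 2 held such a sample, which is what chance at 1 in 20 gives. Mbnl2 was highest in Control 1, with 138 CPM against 121 to 123 CPM in the other 3 Control samples. On the log2 CPM scale the gap was 0.880 of the group's range. Snrpb was lowest in LLC 1, with 56.9 CPM against 80.2 to 93.9 CPM in the other 5 LLC samples. On the log2 CPM scale the gap was 0.687 of the range.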

How the results depend on the processing

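The medians of the core, SR and hnRNP classes stayed positive under every alternative run, at 0.14 to 0.22, 0.12 to 0.21 and 0.13 to 0.24 when each sample was left out, and that of the regulators at 0.10 to 0.17. The lowest values of the first 3 came from other alternatives: limma voom gave 0.11, 0.091 and 0.094, and the replicate block gave 0.11 for the core class. With no filter on low counts the regulator median was -0.013, because the untested genes with a few reads then enter. The median over all genes shifted by 0.01 with median-of-ratios factors and by -0.03 with upper-quartile factors. With no fold limit 4 of the members passed the adjusted p by DESeq2, 7 by limma voom and 0 with the replicate block, and 0 to 5 when each sample was left out. With the fold limit 0 passed by limma voom, 0 with the replicate block and 0 to 2 when each sample was left out. Of the other splicing genes 4 passed the threshold by DESeq2, 2 by limma voom, 0 with the replicate block and 0 to 3 when each sample was left out. The log2 fold change of Celf1 turned positive, to 0.040, by limma voom, and ran from -0.060 to 0.023 when each sample was left out, above 0 without Control 2, Control 4, LLC 1 or LLC 5. The cause of these changes was not tested.

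Equal replicate numbers belong to different mice, and their deviations from the group means correlated at -0.03, 0.01, -0.08 and 0.13, so the numbers do not pair the samples. With the replicate number as a block, LLC 5 and LLC 6 have no Control sample of equal number. The group difference of that fit therefore rests on replicates 1 to 4 of each group. In it the log2 fold change of Rbfox1 was 0.52 (edgeR adjusted p = 0.250) and that of Celf2 0.52 (edgeR adjusted p = 0.123). Depth limits the 7 genes with a few reads, for which no change could be tested. Of the values for single named genes under an alternative, 655 kept their direction and side of the threshold, 17 lost the call, 6 gained it and 5 turned sign. All 17 losses were of Rbfox1 and Rbm38, the only named genes past the threshold in the main fit. Rbfox1 lost the call in 8 of 18 alternatives and Rbm38 in 9 of 18. The other named genes had no call to lose.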
